A study of Oryza sativa Indica Group with 18 samples.

Results

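The response of IR20 rice seedlings to 3 h of drought was read from 6 Affymetrix rice arrays, 3 labelled 3 h stress IR20 and 3 labelled Control IR20, of the 18 arrays in the series. The arrays were taken by their labels, and all probe sets were kept for description across genes and pathways. IR20 is an indica cultivar, and the seedlings were 7 days old and had grown hydroponically on a rice growth medium. For the drought arrays the seedlings lay on Whatman paper sheets for 3 h at 28 °C. For the control arrays they stayed in the medium for 6 h at the same temperature. In these 6 arrays, 3 h of drought and the shorter time since the start of the experiment therefore cannot be told apart. RNA came from whole seedlings, and the labels call the 3 arrays of a group biological replicates without saying whether they came from separate cultures, so p-values measure only the spread between these samples. The other arrays were 3 of IR20 after 6 h of drought and 9 of the cultivar Dagad deshi under the same 3 conditions.

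Plants that lose water make the hormone abscisic acid (ABA). Its receptors then block the clade A protein phosphatases 2C (PP2Cs), which frees SnRK2 kinases to activate bZIP transcription factors at the promoters of ABA-responsive genes. These include dehydrins and other late embryogenesis abundant (LEA) proteins, which are thought to protect membranes and proteins in drying cells. DREB factors act on a partly separate branch, and drying shoots and roots slow their growth.

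Values are given on a log2 scale after 16 was added to each deposited intensity, and a log2 change is the mean of the 3 h arrays minus that of the control arrays. The added 16 sets a floor near 4 on this scale, so that the change of a gene dim in one group is understated. Over the whole array, 40094 probe sets were bright enough to be tested with limma, and a probe set was called at an adjusted p under 0.05.

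The control arrays differed from the drought arrays in a measure of RNA integrity or labelling as well as in treatment. Labelling started from the 3' end, and the 3' and 5' probe sets of actin, GAPDH and cyclophilin were compared as log2 ratios, whose mean over the 3 pairs is called the 3'/5' index here. It was 2.86, 2.79 and 2.89 in 3 h arrays, against 4.33, 6.88 and 4.12 in control arrays. The groups did not overlap, control replicate 2 stood highest, and the difference of -2.26 had an exact permutation p of 0.1 (two-sided), and 3 arrays against 3 allow none smaller. In each pair alone the 3 h arrays were also the lower ones, by 3.36 for actin, 2.16 for GAPDH and 1.26 for cyclophilin. The median SD between replicates was 0.0459 in 3 h arrays and 0.0928 in control arrays. The part of the index in the changes below was not tested, and changes refitted in a model that holds the index are given for the largest changes and where they end a named gene's call or move a list's count by over 1.5 times. No drought array of the series had an index above 3.19 and no control array one below 4.12, so that this model carries its slope across a range without arrays.

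**Figure D1:**
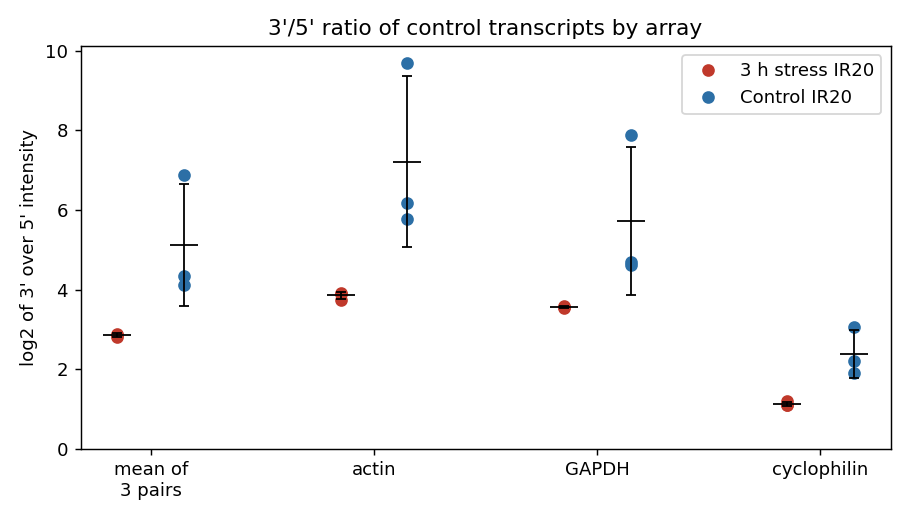
The log2 ratio of 3' over 5' intensity for the mean of 3 control pairs and for each pair, with a point per array and bars for the mean and SD of 3 arrays. The 3 h arrays lie between 2.79 and 2.89 in the mean of the pairs, below all control arrays at 4.12 to 6.88.

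At 3 h, 14768 probe sets were called, 36.8% of those tested, with 5978 higher (14.9%) and 8790 lower (21.9%). The largest changes were mostly rises. A change of at least 2-fold was called for 2529 probe sets higher and 2413 lower, and one of at least 8-fold for 355 higher and 34 lower. With the index in the model 7754 probe sets were higher (19.3%) and 8288 lower (20.7%), and 4980 of the higher calls and 7068 of the lower calls were called again in the same direction and none in the opposite one. Of the calls of at least 2-fold, 2319 of 2529 higher and 2381 of 2413 lower were made again. The 6 arrays fitted alone made 12866 of the 14768 calls again (87.1%), and called 6128 probe sets higher and 8144 lower.

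The 10 largest rises among named genes were of 6.12 to 8.91 on the log2 scale, and several of these genes were close to the floor in control arrays. HOX24 (LOC4330155), a homeodomain-leucine zipper transcription factor, was at 13.43, 13.42 and 13.38 in 3 h arrays and at 4.49, 4.52 and 4.49 in control arrays. Its log2 change was 8.91 (SE 0.0473, adjusted p = 2.83e-20, and 2.59e-07 with only the 6 arrays). SWEET15 (LOC4329464), a sugar transporter, was at 12.87, 12.88 and 12.89 in 3 h arrays and at 4.56, 5.26 and 4.56 in control arrays, a change of 8.09 (SE 0.144, adjusted p = 1.19e-14). SWEET15 left the floor in control replicate 2 only. EM (LOC4338499), a LEA protein known from seeds, was at 12.44, 12.64 and 12.5 in 3 h arrays and at 4.97, 5.36 and 4.59 in control arrays, a change of 7.55 (SE 0.161, adjusted p = 8.59e-14). RAB16B (LOC4350453), a dehydrin, was at 15.13, 15.15 and 15.11 in 3 h arrays and at 8.03, 7.41 and 8.24 in control arrays, a change of 7.24 (SE 0.399, adjusted p = 2.74e-09). Its control arrays spread over a wider range than its 3 h arrays, with control replicate 2 the lowest.

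The other rises of this size came from phosphatases and membrane proteins as well as a dehydrin. ELA3 (LOC4341858), an early nodulin-like protein, was at 13.03, 13.13 and 13.12 in 3 h arrays and at 5.59, 6.06 and 5.94 in control arrays, a change of 7.23 (adjusted p = 7.5e-16). The dehydrin rab25 (LOC4326935) was at 11.88, 11.7 and 11.7 in 3 h arrays and at 4.67, 4.77 and 4.72 in control arrays, a change of 7.04 (adjusted p = 9.06e-14). In neither gene did the groups come near each other. PP2C59 (LOC4341949), a protein phosphatase 2C, was at 11.53, 11.46 and 11.6 in 3 h arrays and at 4.54, 4.5 and 4.51 in control arrays, a change of 7.02 (adjusted p = 4.17e-18). PM1 (LOC4338635), a plasma membrane protein of the PM19 family, was at 13.24, 13.27 and 13.45 in 3 h arrays and at 7.13, 6.54 and 7.52 in control arrays, a change of 6.26 (adjusted p = 1.09e-12). PP2C68 and PP2C30 complete the list of the 10 largest rises and are given with the ABA pathway. Fitted with the index, these 10 changes lay between 6.06 for PM1 and 8.92 for HOX24.

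The largest falls among named genes were smaller than the largest rises. BBD1 (LOC4326932), a nuclease first described in basal defence, was at 9.42, 9.23 and 9.27 in 3 h arrays and at 12.83, 12.73 and 12.99 in control arrays, a change of -3.54 (SE 0.146, adjusted p = 1.14e-10). PDX12 (LOC4347937), of the vitamin B6 synthesis family, was at 6.09, 6.39 and 6.01 in 3 h arrays and at 9.16, 9.66 and 9.19 in control arrays, a change of -3.17 (adjusted p = 4.3e-09). NH5 (LOC4351457), an NPR1 homologue, was at 5.81, 5.9 and 5.69 in 3 h arrays and at 8.89, 8.73 and 8.87 in control arrays, a change of -3.03 (adjusted p = 1.65e-11). In each of these genes all 3 h arrays lay below all control arrays. PEX11-4 (LOC4336511), a factor of peroxisome division, was at 7.46, 7.61 and 7.55 in 3 h arrays and at 10.28, 10.56 and 10.53 in control arrays, a change of -2.91 (adjusted p = 1.08e-10). PCL1 (LOC4326391), a component of the circadian clock, was at 11.07, 10.87 and 10.81 in 3 h arrays and at 13.46, 13.57 and 13.48 in control arrays, a change of -2.59 (adjusted p = 8.65e-12).

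Transport and auxin genes were also among the 10 largest falls. ZIP3 (LOC4336971), a zinc transporter, was at 5.03, 4.76 and 4.78 in 3 h arrays and at 7.56, 7.26 and 7.84 in control arrays, a change of -2.7 (SE 0.274, adjusted p = 1.65e-06). SAUR39 (LOC9271092), an auxin-responsive gene, was at 6.01, 6.18 and 5.86 in 3 h arrays and at 8.6, 8.21 and 8.68 in control arrays, a change of -2.48 (adjusted p = 6.3e-09). IAA14 (LOC4334431), an Aux/IAA repressor of auxin signalling, was at 5.89, 6.16 and 6.01 in 3 h arrays and at 8.33, 8.66 and 8.31 in control arrays, a change of -2.41 (adjusted p = 3.84e-09). All 20 genes of the largest rises and falls had groups without overlap because the choice required it, which held for 48.1% of all probe sets tested. AT1 (LOC4348247) fell by 2.85 (adjusted p = 4.2e-11) and MIF3 (LOC4347053), a mini zinc finger protein, fell by 2.59 (adjusted p = 1.73e-07). After the index was added the 10 falls lay between -3.81 for BBD1 and -2.23 for IAA14.

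**Figure D2:**
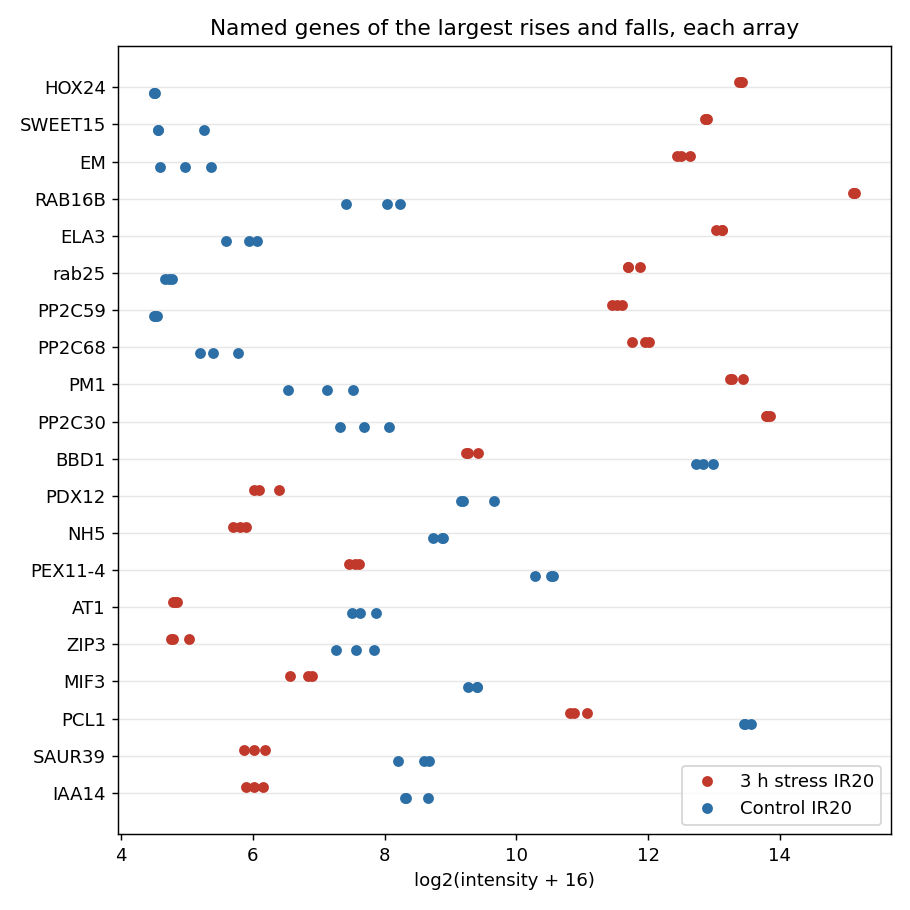
Each array's log2(intensity + 16) for the 10 largest rises, from the top, and the 10 largest falls, with 3 h stress IR20 above Control IR20 for each gene. The points of the 2 groups do not overlap for any of the 20 genes, and HOX24 lies near 13.4 in 3 h arrays against 4.5 in control arrays.

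For pathways, each gene was read from its brightest tested probe set, which gave 16971 genes. Of these 21.5% were called higher and 36.4% lower, with a median change of -0.09. List members came from the 2381 tested genes with a name beyond LOC and a number, called described genes here. Of the described genes 27% were called higher and 33.4% lower, and the counts of each list below stand against these shares. Of 22 tested genes of ABA signalling, 17 rose, 1 fell and 4 were not called, with a median of 1.33. All 8 PP2Cs of clade A, which hold the pathway back, rose, by 0.95 to 6.45 with a median of 3.94. PP2C68 (LOC4346736) was at 11.75, 11.95 and 12.02 in 3 h arrays and at 5.2, 5.77 and 5.4 in control arrays, a change of 6.45 (SE 0.269, adjusted p = 1.31e-10). PP2C30 (LOC4332374) was at 13.8, 13.85 and 13.79 in 3 h arrays and at 7.32, 8.06 and 7.68 in control arrays, a change of 6.12 (adjusted p = 1.86e-13). The phosphatases PP2C08 (LOC4324182) and PP2C09 (LOC4327465) rose by 4.95 and 4.27 with no overlap of the groups. Among the SnRK2 kinases, which PP2Cs inactivate, 7 of 10 rose, SAPK6 the most at 2.05 (adjusted p = 9.44e-08), and SAPK5 fell by 0.81 (adjusted p = 1.91e-06). The bZIP factors ABF2 and TRAB1 rose by 3.9 and 1.76, and BZIP39 was at 10.38 in 3 h arrays and 10.23 in control arrays (adjusted p = 0.141). The 1 receptor in the list, PYL11, averaged 10.31 in 3 h arrays and 10.32 in control arrays (adjusted p = 0.965). SAPK6, SAPK5, ABF2, TRAB1, BZIP39 and PYL11 were chosen after their values were seen, to show the steps of the pathway.

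The list of ABA synthesis and breakdown held only 3 genes, 1 of synthesis and 2 of breakdown, and all were called higher. ZEP (LOC4335984), zeaxanthin epoxidase of the synthesis route, was at 10.23, 10.32 and 10.21 in 3 h arrays and at 8.38, 8.55 and 8.52 in control arrays, a change of 1.77 (SE 0.0744, adjusted p = 1.46e-10). ABA8OX2 (LOC4345810), an ABA 8'-hydroxylase of the breakdown route, was at 11.42, 11.37 and 11.46 in 3 h arrays and at 8.21, 8.32 and 8.3 in control arrays, a change of 3.14 (adjusted p = 1.31e-11). ABA8OX1 (LOC9269675), of the same route, rose by 1.56 (adjusted p = 2.95e-08). All 8 LEA proteins and dehydrins tested were called higher, with a median of 5.5. RAB21 (LOC4350454), a dehydrin, was at 14.83, 14.81 and 14.84 in 3 h arrays and at 9.41, 8.93 and 8.78 in control arrays, a change of 5.79 (adjusted p = 1.53e-10). The smallest change of the list, named for that reason, was that of RAB16D at 2.37.

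Stress transcription factors mostly rose. Of 16 DREB and NAC factors, 11 were called higher, 1 lower and 4 were not called, with a median of 1.2. DREB2A (LOC4324418) was at 8.47, 8.32 and 8.07 in 3 h arrays and at 5.48, 5.75 and 5.71 in control arrays, a change of 2.64 (SE 0.115, adjusted p = 2.06e-10). DREB1B (LOC4347618), of the family known for cold responses, was at 7.87, 8.06 and 7.99 in 3 h arrays and at 5.32, 6.03 and 4.81 in control arrays, a change of 2.59 (SE 0.269, adjusted p = 2.09e-06). The NAC factors ONAC071 (LOC4349963) and ONAC048 (LOC4325006) rose by 2.83 and 2.5. In the fit with the index, where 22.3% of all genes were called higher and 32.6% lower, 9 members were higher and 0 lower. Of 6 WRKY factors, 4 were called higher, wrky38 (LOC4328512) by 3.45 (adjusted p = 1.56e-11), WRKY24 (LOC4327518) by 1.7 and WRKY51 (LOC4335388) by 1.56. WRKY76 (LOC4347069) changed by 0.43 (adjusted p = 0.0229), and this call was lost with the index (adjusted p = 0.0626) and with only the 6 arrays (adjusted p = 0.0947).

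Heat shock factors and heat shock proteins did not move as 1 group. Of all 44 tested 40.9% were called higher and 22.7% lower, against 27% and 33.4% of described genes. Of 20 heat shock factors, 14 rose and 2 fell, with a median of 0.68. HSFC2A (LOC4328809) was at 10.26, 10.38 and 10.28 in 3 h arrays and at 6.18, 6.32 and 5.81 in control arrays, a change of 4.2 (SE 0.202, adjusted p = 6.44e-10). HSFA3 (LOC4329526) rose by 3.43 (adjusted p = 2.05e-11) and HSFA6B (LOC4326351) by 2.66 (adjusted p = 5.87e-09). Of 18 small heat shock proteins, which keep unfolded proteins soluble, 3 rose and 5 fell, with a median of -0.12. HSP18.6 (LOC4330933) rose most among them and was at 8.35, 8.02 and 8.12 in 3 h arrays and at 5.94, 5.37 and 5.94 in control arrays, a change of 2.41 (adjusted p = 8.61e-09).

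Among genes of osmolyte and trehalose synthesis, 10 of 13 rose and 0 fell, with a median of 0.74. P5CS2 (LOC4324853), of the proline synthesis route, was at 10.13, 10.22 and 10.14 in 3 h arrays and at 6.68, 6.79 and 7.23 in control arrays, a change of 3.27 (SE 0.258, adjusted p = 1.21e-07). TPP9 (LOC4332996), a trehalose-phosphate phosphatase, was at 10.85, 10.78 and 10.9 in 3 h arrays and at 7.51, 7.82 and 7.58 in control arrays, a change of 3.21 (adjusted p = 1.35e-12). The phosphatases TPP2 (LOC4349333) and TPP1 (LOC4330221) rose by 1.46 and 1.18. Of 38 genes of sucrose and starch, 16 rose and 6 fell. After SWEET15 the largest rises were those of SWEET16 (LOC4332795), a sugar transporter, at 3.23, of the alpha-amylase AMY3D (LOC4345814) at 3.17 and of the neutral invertase NIN1 (LOC4332650) at 2.48. The index in the model made 10 members of this list lower in place of 6.

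Aquaporins, the water channels of plant membranes, went both ways, with 10 of 24 higher (41.7%), 6 lower (25%) and a median of 0.06. Of described genes 27% were higher and 33.4% lower. In the plasma membrane group 6 of 9 rose and 2 fell, in the vacuolar group 4 of 8 rose and 1 fell. TIP3-1 (LOC4348981), a vacuolar aquaporin known from seeds, was at 8.93, 8.83 and 8.76 in 3 h arrays and at 4.81, 5.17 and 4.76 in control arrays, a change of 3.92 (SE 0.266, adjusted p = 2.45e-08). TIP1-2 (LOC4324303) was at 11.54, 11.62 and 11.68 in 3 h arrays and at 7.79, 7.88 and 7.87 in control arrays, a change of 3.77 (adjusted p = 7.31e-08). The plasma membrane aquaporins PIP2-4 (LOC4343119) and PIP1-3 (LOC4331194) rose by 1.44 and 1.34.

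**Figure D3:**
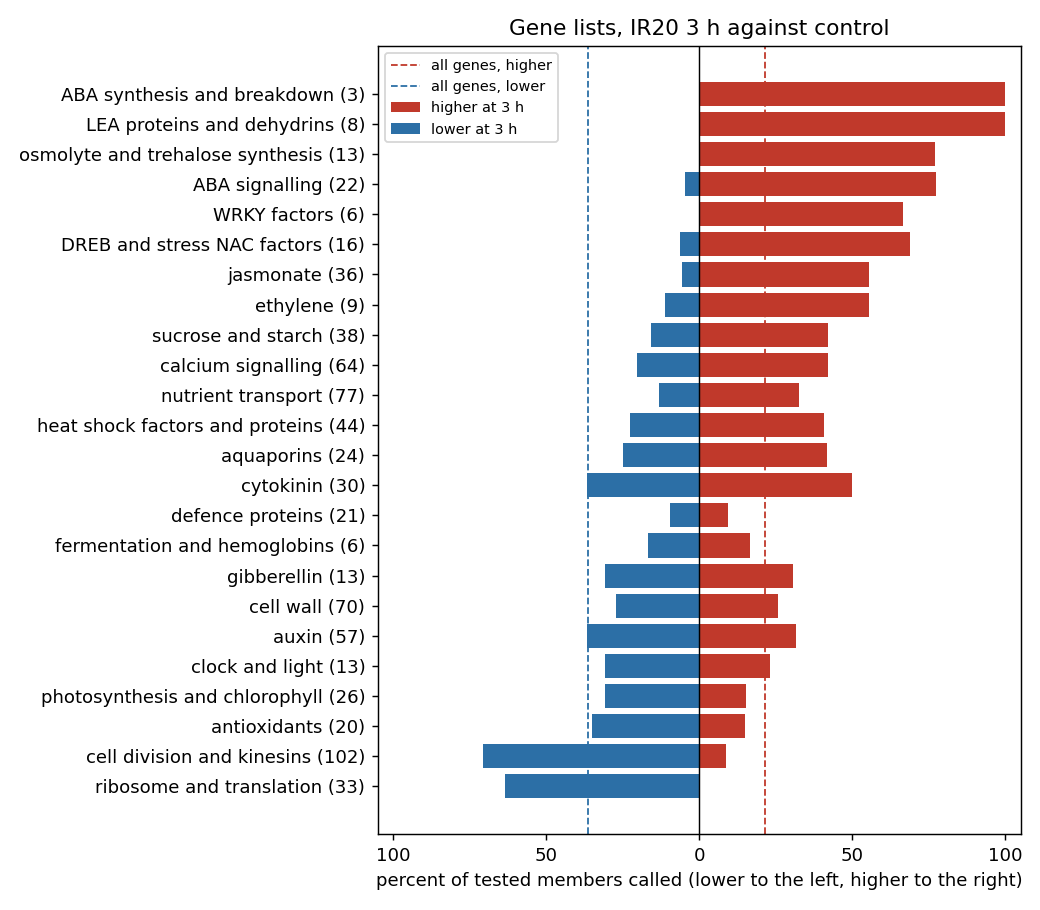
Percent of the tested members of 24 gene lists called higher (right) and lower (left) at 3 h, with the number tested in brackets and dashed lines at the share over all 16971 genes. The lists were drawn from described genes, of which 27% were called higher and 33.4% lower, against 21.5% and 36.4% at the lines. LEA proteins and dehydrins were all called higher, and 72 of 102 genes of cell division and kinesins were called lower.

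Jasmonate genes rose more often than they fell, 20 against 2 of 36, with a median of 0.63. The repressors of jasmonate signalling carried the largest changes. TIFY11E (LOC4348531) was at 11.97, 11.9 and 11.77 in 3 h arrays and at 7.62, 7.92 and 7.8 in control arrays, a change of 4.1 (SE 0.106, adjusted p = 7.75e-13). TIFY11B (LOC4331834) rose by 3.39, TIFY11A (LOC4331832) by 3.26 and AOS3 (LOC4328742), an allene oxide synthase, by 3.19. In the ethylene list 5 of 9 rose and 1 fell. ACO1 (LOC4347225), which makes ethylene, was at 13.1, 13.12 and 13.22 in 3 h arrays and at 11.4, 11.41 and 11.44 in control arrays, a change of 1.73 (adjusted p = 2.1e-08). The signalling genes EIL1A (LOC107276358) and ERS1 (LOC4333832) rose by 0.68 and 0.6. ACS2 (LOC4336750), of the step before ACO1, changed by 0.66 with an adjusted p of 0.0486. This call was lost with quantile normalization (adjusted p = 0.106), with 1 added in place of 16 (adjusted p = 0.128) and without any one of the 6 arrays but control replicate 3.

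Gibberellin and auxin genes were split between both directions, in shares near the 27% higher and 33.4% lower of described genes. Of 13 gibberellin genes 4 rose and 4 fell (30.8% each). GA20OX3 (LOC4342505), of the synthesis route, was at 10.53, 10.6 and 10.6 in 3 h arrays and at 8.08, 7.68 and 8.32 in control arrays, a change of 2.55 (SE 0.143, adjusted p = 3.44e-09). The receptor gid1 (LOC4338764) rose by 1.86 and KAO (LOC4339885), ent-kaurenoic acid oxidase, fell by 1.69. CYP714C2 (LOC4351346) changed by -1.11 (adjusted p = 0.0348), its groups overlapped, and the call was lost both in the fit of only the 6 arrays, where the adjusted p was 0.15, and beside the index, where it was 0.178. Only 1 gibberellin gene was called lower once the index was in the model. Of 57 auxin genes 18 rose (31.6%) and 21 fell (36.8%), and 13 were called lower with the index as a term. IAA9 (LOC4331061), an Aux/IAA repressor, was at 10.41, 10.55 and 10.56 in 3 h arrays and at 7, 6.51 and 7.23 in control arrays, a change of 3.59 (adjusted p = 3.77e-09). ARF15 (LOC9268260), an auxin response factor, rose by 1.27.

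In the cytokinin list 15 of 30 genes rose and 11 fell. Of the genes that activate or oxidize cytokinins 9 of 13 rose and 3 fell, and of the response regulators 2 of 12 rose and 7 fell, a difference between roles that was not tested. CKX5 (LOC4327887), a cytokinin oxidase, was at 8.44, 8.15 and 8.39 in 3 h arrays and at 6.02, 6.19 and 5.72 in control arrays, a change of 2.35 (SE 0.138, adjusted p = 5.34e-09). CKX4 (LOC4326515) rose by 1.85. RR1 (LOC4335937), a response regulator, was at 5.5, 5.5 and 5.48 in 3 h arrays and at 7.78, 8.24 and 7.64 in control arrays, a change of -2.4 (adjusted p = 2.41e-09). RR2 (LOC4329677) fell by 1.83.

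Cell division genes formed the largest group that fell. Of 102 tested, 72 fell, 9 rose and 21 were not called, against 36.4% lower over all genes, and the median was -0.59. Among genes of DNA replication 25 of 28 fell and 0 rose, among cyclins 17 of 24 fell and 1 rose, and among kinesins 22 of 34 fell and 5 rose. RPA2A (LOC4331236), a subunit of the single-strand binding protein of replication, was at 8.33, 8.32 and 8.24 in 3 h arrays and at 10.39, 10.68 and 10.48 in control arrays, a change of -2.22 (SE 0.079, adjusted p = 2.32e-11). PCNA (LOC4331062), the sliding clamp of DNA polymerase, was at 9.7, 9.79 and 9.72 in 3 h arrays and at 11.76, 11.91 and 11.88 in control arrays, a change of -2.11 (adjusted p = 3.37e-10). All 3 h arrays were below all control arrays for both genes. POLD2 (LOC4331489), a subunit of DNA polymerase delta, fell by 2.18 and the D-type cyclin CYCD3-1 (LOC4340499) by 1.9. Fitted with the index, 62 members fell and 8 rose.

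Of 33 genes of ribosome and translation, 21 fell and 0 rose, with a median of -0.38. The changes were small, with eIF3k (LOC4331842), a subunit of an initiation factor, at -1.21 (SE 0.0798, adjusted p = 1.8e-08). RPS10-1 (LOC4329619) fell by 0.85, RPS7 (LOC4338485) by 0.69 and RPS26 (LOC4327570) by 0.67. In the fit with the index 26 fell and 0 rose.

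**Figure D4:**
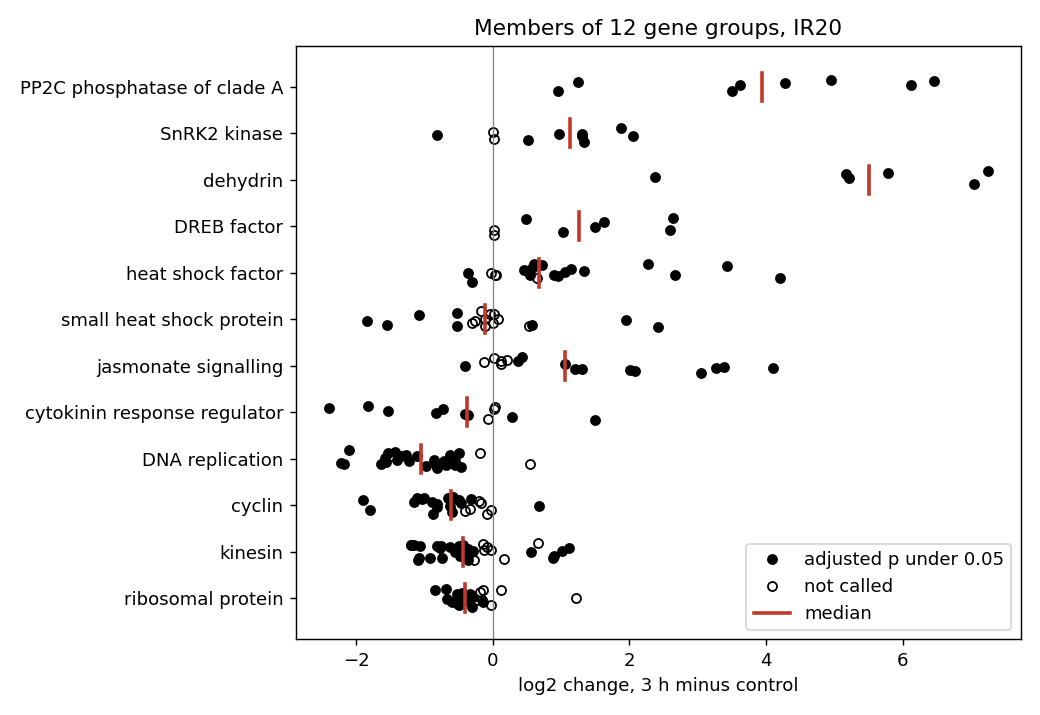
The log2 change, 3 h minus control, of each tested member of 12 gene groups, filled where called, with the group's median as a red line. PP2Cs of clade A and dehydrins lie to the right of 0 in full, and 25 of 28 genes of DNA replication were called lower.

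Of 70 cell wall genes 18 were called higher (25.7%) and 19 lower (27.1%), against 27% and 33.4% of described genes. Expansins, which loosen walls, held the largest changes, with 11 of 26 higher and 6 lower. EXPB11 (LOC4330213) was at 14.24, 14.23 and 14.46 in 3 h arrays and at 11.89, 11.72 and 12.01 in control arrays, a change of 2.43 (SE 0.104, adjusted p = 1.63e-10). EXLA2 (LOC4349265), an expansin-like gene, rose by 3.76 and EXPA29 (LOC4342086) by 2.34. GT43G (LOC4348270), a glycosyltransferase, rose by 1.7.

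Of 26 genes of photosynthesis and chlorophyll, 4 rose (15.4%) and 8 fell (30.8%), against 27% and 33.4% of described genes. With the index as a term 12 were called lower. SGR (LOC4347672), which starts chlorophyll breakdown, was at 12.09, 12.12 and 11.95 in 3 h arrays and at 10.21, 9.2 and 10.44 in control arrays, a change of 2.1 (SE 0.235, adjusted p = 4.34e-06). PSAG (LOC4337812), a photosystem I subunit, rose by 2.1 as well. CAO (LOC4349433), of chlorophyll b synthesis, rose by 0.85 and RCCR1 (LOC4348519), of chlorophyll breakdown, by 0.82. Of 20 antioxidant genes 3 rose (15%) and 7 fell (35%), against 27% and 33.4% of described genes. PRXIIE-2 (LOC4328586), a peroxiredoxin, was at 10.71, 10.8 and 10.65 in 3 h arrays and at 12.17, 12.52 and 12.3 in control arrays, a change of -1.61 (adjusted p = 1.89e-07). The catalase CAT-A (LOC4328073) fell by 0.86 and PRXIIE-1 (LOC4341570) by 0.81, and the glutathione reductase GRase (LOC4331112) rose by 0.83.

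Of 77 nutrient transport genes 25 rose (32.5%) and 10 fell (13%), against 27% and 33.4% of described genes. In the potassium and sodium group 12 of 21 rose. With the index 6 of the 77 were called lower. HAK27 (LOC4333296), a potassium transporter, was at 7.7, 7.74 and 7.67 in 3 h arrays and at 4.72, 4.95 and 5.11 in control arrays, a change of 2.78 (SE 0.108, adjusted p = 6.19e-11). HAK25 (LOC4330614) rose by 1.85, and NAS3 (LOC4344361), a nicotianamine synthase of iron transport, fell by 2.02. Of 64 genes of calcium signalling and protein kinases 27 rose (42.2%) and 13 fell (20.3%), and 8 were called lower with the index. MPK3 (LOC4332475), a MAP kinase, rose by 2.2, CIPK5 (LOC4327093) by 1.91 and CIPK17 (LOC4337736) by 1.67. MPK10 (LOC4326668) had 10.27, 10.48 and 10.1 in 3 h arrays and 8.1, 6.8 and 8.58 in control arrays, a change of 2.45 (SE 0.682, adjusted p = 0.0101), which was 0.64 (adjusted p = 0.115) in the fit with the index and 1.94 (adjusted p = 0.0547) without control replicate 2.

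The clock and light list held 13 genes, of which 3 rose (23.1%) and 4 fell (30.8%), against 27% and 33.4% of described genes. LHY (LOC4344703), a clock factor of the morning, was at 11.29, 11.36 and 11.3 in 3 h arrays and at 8.9, 9.09 and 8.97 in control arrays, a change of 2.33 (SE 0.194, adjusted p = 2.11e-07). The pseudo-response regulators PRR95 (LOC4347674) and PRR73 (LOC4332464) rose by 0.61 and 0.6. In the 3 h comparison the shorter time after the start and the drought itself cannot be told apart for these genes, nor for PCL1. The seedlings at 6 h of drought match the control seedlings in time. At 6 h LHY averaged 11.13 against 8.99 in control arrays, and PCL1 10.84 against 13.5. PRR95 averaged 12.48 against 11.05 and PRR73 12.63 against 11.92. The part of time in these changes was not tested. In the fermentation list PDC1 (LOC4339066), pyruvate decarboxylase, rose by 2.77, and the other 4 of 6 genes were not called. PDC2 (LOC4332519) changed by -0.59, a call that was lost with only the 6 arrays (adjusted p = 0.0507). Of 21 defence proteins 2 rose and 2 fell (9.52% each), against 27% and 33.4% of described genes. With the index 5 were called higher and 1 lower. The chitinase Cht11 (LOC4331519) rose by 0.74 and the germin-like GER5 (LOC4345763) fell by 0.91. Cht6 (LOC4329920), also a chitinase, changed by 0.53, and its call was lost without control replicate 2 (adjusted p = 0.0638). The salt-responsive lectin salT (LOC4326471) changed by -0.43 with an adjusted p of 0.0499, and this call was lost with the index (adjusted p = 0.261) and with only the 6 arrays (adjusted p = 0.0897).

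**Figure D5:**
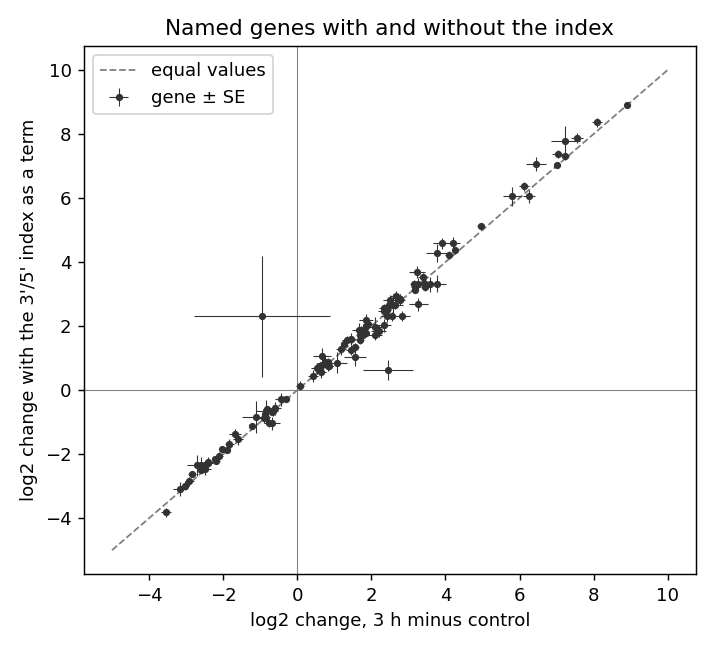
The log2 change of the 111 named genes, 3 h minus control, without (x axis) and with (y axis) the 3'/5' index as a term, with SE bars and a dashed line of equal values. AMY1A lies on opposite sides of 0, at -0.96 and 2.31 with neither past the threshold, and MPK10 moved from 2.45 without the index to 0.64 with it.

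Markers of leaf, root and endosperm were read to check the tissue. The summed intensity of 9 green leaf markers was 131295 to 134373 in 3 h arrays and 141935 to 150968 in control arrays. That of 7 root markers was 11634 to 12020 in 3 h arrays and 7781 to 12090 in control arrays. Both kinds were present, as the whole-seedling label says. Of the leaf markers 1 rose, PSAG by 2.1, which was the largest change among them. The 4 that fell included PORB (LOC4349004) by 0.76, PSB28 (LOC4326537) by 0.65 and RCABP69 (LOC4343583) by 0.29. Of the root markers the silicon transporter Lsi2 (LOC4331328) changed by 1.07 and the ammonium transporter AMT1-1 (LOC4336365) by 0.64, and NAS1 (LOC4332608) by -0.83. The calls of Lsi2 and NAS1 were lost with the index (adjusted p = 0.0515 for Lsi2 and 0.148 for NAS1) and with only the 6 arrays (0.0718 for Lsi2 and 0.0573 for NAS1), and control replicate 2 was the lowest of the 3 control arrays for all 3 genes. Of 8 endosperm and aleurone genes 0 were called, and their summed intensity was 3451 to 3909 in 3 h arrays and 4195 to 9109 in control arrays. GLUA-2 (LOC4348563), a glutelin, averaged 8 in 3 h arrays and 7.91 in control arrays, the other storage protein genes averaged under 5, and the aleurone amylase AMY1A (LOC4330832) was at 11.7, 11.63 and 11.84 in 3 h arrays and at 12.99, 11.95 and 13.11 in control arrays, without overlap (adjusted p = 0.827). The spread in that test is shared by all groups, and AMY1A had an SD of 5.58 in the control arrays of Dagad deshi. Among the 9 IR20 arrays alone its change of -0.96 was called (adjusted p = 0.029). The part of leaf, root and seed in the changes was not tested, and in whole seedlings fewer cells of a type and less RNA per cell cannot be told apart.

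By 6 h of drought many genes of IR20 had moved on from their 3 h level. Between 6 h and 3 h, 10226 probe sets (25.5%) were called, 4372 higher (10.9%) and 5854 lower (14.6%). Of the 2413 probe sets at least 2-fold lower at 3 h, 1137 were lower still at 6 h and 199 were higher. Of the 2529 at least 2-fold higher at 3 h, 788 were higher still and 483 lower. These counts share the 3 h arrays with the first comparison and are a description. The dehydrin rab25 was at 14.23, 13.98 and 14.13 at 6 h, 2.36 above 3 h (adjusted p = 4.47e-08), and PCNA was at 8.98, 8.74 and 8.68, 0.94 below 3 h (adjusted p = 3.98e-06). HSP18.6 was at 12.2, 12.08 and 12.06 at 6 h, 3.95 above 3 h (adjusted p = 1.87e-10). EXPB11 turned back, at 10.99, 10.88 and 10.92 at 6 h, 3.38 below 3 h (adjusted p = 2.7e-11). These 6 h values also lay below its control arrays, at 11.89, 11.72 and 12.01. PP2C30 stayed near its 3 h level, at 13.78, 13.61 and 13.73 (change -0.11, adjusted p = 0.702). These 5 genes were chosen among the named genes after their values were seen.

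The same contrast in Dagad deshi was the other comparison the design allowed. The change at 3 h differed between the cultivars, by an interaction term, for 19328 probe sets (48.2%), a count that other settings moved by over 1.5 times. Of the 2529 probe sets at least 2-fold higher in IR20, the change was called smaller in IR20 than in Dagad deshi for 1315 and larger for 361. Of the 2413 at least 2-fold lower in IR20, the fall was called smaller in IR20 for 1365 and larger for 285. These probe sets were chosen by their change in IR20, which the interaction shares, so the split is a description. HSP18.6 differed most among the named genes, with a change of 2.41 in IR20 and 7.22 in Dagad deshi.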

How the data were processed

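Total RNA of whole seedlings was labelled with biotin by a 3' method and hybridized to Affymetrix rice arrays. The authors deposited 1 linear intensity per probe set and array, and GCOS is named in the submitters' notes. How probe sets were summarized and arrays normalized is not given in the sources used here. Precision is limited by the number of arrays.

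A constant of 16 was added to each intensity before log2 was taken. Of the array's control probe sets 104 were dropped and 19 kept, those of the actin, GAPDH, ubiquitin and cyclophilin families. Probe sets with a mean above the 30th percentile (40094) were fitted over all 18 arrays with limma 3.58.1 in R 4.3.3, with 6 group means and a trended prior, and p-values were adjusted by the Benjamini-Hochberg method within each comparison. Gene names came from the platform annotation and RefSeq. Of all probe sets 22436 had 1 gene, 95 several and 34850 none, and 2457 of 17905 genes had a name beyond LOC and a number.

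Named genes were the 10 largest rises and the 10 largest falls called among genes with such a name, without overlap of the groups and with the same sign in every alternative, and up to 4 called members of largest change per list, or the 2 brightest where none was called. The members, the lists and the pairs of the 3'/5' index were chosen with earlier results of these data known.

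The fit was tested on simulated data. It kept its nominal rate where each probe set had 1 SD, also with a factor per group, and made more false calls than nominal where each group had its own SD per probe set. After adjustment the 6 arrays alone made fewer such calls, so that fit is given beside the counts. Alternatives covered normalization, the added constant, the filter, the variance model, the index, the arrays fitted and each of the 6 arrays compared left out, and leaving out each of the 12 arrays of the other groups was added after the results were known. The default estimate of array weights did not converge, so a gene-by-gene estimate was used, a choice made after the first result was seen.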

Additional observations from a re-analysis of the deposited data

Results flagged for a closer look

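The 3 h response of IR20 was set against that of Dagad deshi by an interaction term, whose value is the IR20 change minus the Dagad deshi change. It passed an adjusted p of 0.05 in limma for 80 of the 111 named genes and for 48.2% of all probe sets tested. IR20 changed less upward or more downward for 50 of the genes and the reverse held for 30. Nearly all named genes were chosen by their change in IR20, which the interaction shares, so these counts are a description. Once the 3'/5' index was in the model, 75 of the 80 were called again with the same sign. The 5 that were not are TPP2, EXPA29, CIPK17, WRKY51 and GLUA-2. The index was above that of the drought arrays in the control arrays of Dagad deshi too, at 5.52 to 8.88 against 1.8 to 2.14 at 3 h, and its part in these differences was not tested.

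Of the largest rises, the difference was -0.96 for HOX24 (adjusted p = 9.88e-08), -1.15 for SWEET15, -0.9 for EM, -2.74 for RAB16B and -2.57 for ELA3 (adjusted p = 9.85e-09). It was -1.2 for rab25, -1.35 for PP2C59 and -1.91 for PM1, so that these 8 genes rose less in IR20. Of the largest falls, it was 3.05 for BBD1, 2.5 for PDX12, 1.9 for PEX11-4, 3.32 for PCL1 and 1.42 for IAA14, which fell less in IR20. For ZIP3 it was -2.15 and for SAUR39 -2.48, and neither gene was called in Dagad deshi. There ZIP3 changed by -0.55 (adjusted p = 0.0857), and SAUR39 averaged 7.25 at 3 h and 7.26 in control arrays (adjusted p = 0.985).

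HSP18.6 had the largest difference of the named genes, at -4.81 (adjusted p = 1.41e-09), with a change of 2.41 in IR20 and 7.22 in Dagad deshi. RAB21 followed at -3.41. The stress factors DREB2A at -1.38, ONAC048 at -1.2, HSFC2A at -0.85 and HSFA6B at -0.9 rose less in IR20. In the ABA lists the difference was 0.85 for PP2C08, -0.59 for ZEP and -1.71 for ABA8OX1. The WRKY factors wrky38 at -0.72, WRKY24 at -1.19 and WRKY51 at -1.53 rose less in IR20. Such a difference can lie in the control level as well as the 3 h level. At 3 h wrky38 averaged 12.42 in IR20 and 12.25 in Dagad deshi, against 8.97 and 8.07 in control arrays. For RAB21 these levels were 14.83 and 15.42, against 9.04 and 6.22. For HOX24 they were 13.41 and 14.38, against 4.5 and 4.51. The genes wrky38, RAB21 and HOX24 were picked here after their values were seen.

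Among water, sugar and osmolyte genes it was -1.71 for TIP3-1, -1.42 for PIP2-4, -1.04 for PIP1-3, -1.69 for P5CS2, -0.54 for AMY3D and -1.38 for NIN1. The trehalose-phosphate phosphatases differed from each other, with 1.09 for TPP9, -0.51 for TPP2 and 1.56 for TPP1, whose change was 1.18 in IR20 and -0.38 in Dagad deshi. Among hormone genes it was -1.13 for TIFY11A, -2.13 for AOS3, 1.47 for ACO1, -0.34 for EIL1A and -1.9 for ACS2. The ACO1 probe set was far dimmer in Dagad deshi, at a mean of 6.35 at 3 h and 6.09 in control arrays, against 13.15 and 11.42 in IR20. It was -1.75 for GA20OX3, -0.35 for gid1, -1.7 for IAA9 and 0.58 for ARF15. In the cytokinin list it was 1.33 for RR1, 1.55 for RR2, 1.18 for CKX5 and -0.72 for CKX4.

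The 4 cell division genes here fell less in IR20, by 1.36 for RPA2A, 0.76 for POLD2, 0.67 for PCNA and 1.66 for CYCD3-1, as did RPS10-1 by 0.52. In the cell wall list the difference was -2.4 for EXLA2, 1.35 for EXPB11 and 0.8 for EXPA29. Among photosynthesis and antioxidant genes it was -1.46 for PSAG, -1.95 for SGR, 0.53 for CAO, -2.06 for RCCR1, 2.74 for PRXIIE-2 and -1.65 for GRase. Among transport, fermentation and signalling genes it was -1.19 for HAK27, -0.73 for HAK25, 1.33 for NAS3, -1.26 for PDC1, -0.31 for PRR73, -1.4 for MPK3, -1.21 for CIPK5 and 0.66 for CIPK17. Among defence proteins it was 2.14 for GER5, 1.66 for Cht11, -1.88 for Cht6 and -1.71 for salT. The change of Cht11 was 0.74 in IR20 and -0.92 in Dagad deshi, and that of salT was -0.43 and 1.28. Among tissue markers the difference was 0.98 for PORB, 2.1 for PSB28, 0.39 for RCABP69, 1.71 for Lsi2 and -0.43 for GLUA-2. The change of Lsi2 was 1.07 in IR20 and -0.64 in Dagad deshi.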

How the results depend on the processing

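The count of 14768 calls stayed within 1.5 times under every alternative but 1, and was 13167 to 16254 when each of the 18 arrays was left out in turn, of which the 12 outside the comparison were added after seeing the data. A test against a 1.5-fold change (treat) called 4956 probe sets, 2358 higher and 2598 lower, 4223 for the interaction and 1942 for 6 h against 3 h. Calls higher were 5277 to 6683 and calls lower 7637 to 9571 with an array left out. The interaction count of 19328 was 30808 with no filter on low values, 12564 with a filter at the 60th percentile and 12656 with the index as a term, and 15222 to 22261 with an array left out. With array weights, whose gene-by-gene estimate was chosen after seeing the data, 6 h against 3 h gave 16425 in place of 10226, and 8424 to 11873 with an array left out. The index difference of -2.26 was -1.38 without control replicate 2 and -2.76 at the other end of the arrays left out. Apart from treat, 10 of the 111 named genes lost or gained a call in some alternative, namely ACS2, CYP714C2, NAS1, WRKY76, salT, PDC2, MPK10, Lsi2, Cht6 and AMY1A, and 1 turned its direction, AMY1A at 2.31 with the index as a term. The replicate numbers did not pair the samples, with correlations of deviations of -0.0552, -0.172 and -0.294 and 0 of 6 arrays closest to their own number, and the fit with a replicate block called 14609 probe sets. Of 54 counts of list members by direction, 2 moved by over 1.5 times with quantile normalization, 10 with the index, 8 with only the 6 arrays, 8 with array weights and 39 with treat.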

Other observations

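The poly-A spike-in transcripts, which are added to the RNA before labelling, differed between the groups. All 24 of their probe sets were brighter in every 3 h array of IR20 than in every control array, by 0.89 to 1.71 on the log2 scale at the 3' end, 1.58 to 2.71 in the middle and 1.19 to 3.8 at the 5' end. The 9 probe sets of the hybridization controls, which are added after labelling, differed by -0.14 to 0.19, and in 0 of them did all 3 h arrays lie above all control arrays. The part of this in the gene changes was not tested.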
